A study of Homo sapiens with 16 samples.

Results

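The response of BMAL1 knockout (KO) cells to doxorubicin was taken from 2 of the 8 groups of an RNA-seq study of MDA-MB-231, a human cell line grown from a breast cancer without hormone receptors or HER2 amplification. BMAL1, gene symbol ARNTL, pairs with CLOCK to switch on the genes of the circadian oscillator. Doxorubicin is an anthracycline that intercalates into DNA and traps topoisomerase II on it, and the labels name it as a drug that starts apoptosis. KO control and KO doxorubicin hold 2 biological replicates each, so 4 of the 16 samples of the study enter, and all 4 carry the BMAL1 deletion. Wild-type (WT) cells without drug, WT cells with doxorubicin and KO cells with cisplatin, a DNA crosslinker, are set beside them, also with 2 replicates each. The sources used here give neither doses nor exposure times, and neither the edited stretch of the gene nor the number of KO clones.

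The authors deposited 1 value per gene and group, as FPKM (a fragment count divided by transcript length and library size), made from both replicates together. The response of a gene is the log2 ratio of KO doxorubicin over KO control after adding 1 FPKM to each, a scale that understates the change of low genes. Genes with at least 5 FPKM in 1 of the 2 groups were kept, which left 9008 of 60658. Of these, 3112 passed only through the control group and 235 only through the doxorubicin group. Such a gene had to be lower or higher as deposited, though not by 2-fold and not after centring. CYLD, for example, passed only through control (5.24 to 4.99 FPKM) and lay 0.69 log2 above the median gene. At the edge of this minimum, KCNK1 with 5.002 FPKM and BLOC1S5 with 5.003 FPKM in control were kept, while MTRF1 with 4.997 and NDUFAF7 with 4.994 FPKM were not. The centred response has the median over the genes kept taken off, and a gene is counted as higher or lower here from a 2-fold centred response on. At that threshold LYRM7 lay just inside on the higher side and PIGY (-0.9996) just outside on the lower side. With 1 value per group and none per library there is no standard deviation and no test of the response, and whether the replicates came from separate cultures cannot be judged from the values. The number after a ± sign is an error scale read from the statistics the authors deposited in the control and doxorubicin tables. It holds the spread of the WT groups as well as that of the KO groups, it is missing where the authors made no test, and its median was 0.33 log2 over 8498 genes.

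The labelled cell type was checked against its markers. ARNTL itself had 0.889 FPKM in KO control and 0.474 in KO doxorubicin, against 5.67 in WT control. VIM, CD44 and KRT18 were present in both KO groups, at 4033 to 6639.7, 229 to 296 and 563 to 101 FPKM, and the hormone receptor genes ESR1 and PGR were listed at 0. The extraction protocol speaks of fibroblast lines. Of 8 fibroblast markers 7 stayed under 1 FPKM in both groups, with PDGFRA, DCN and COL1A2 at or near 0, and the list summed to 5.81 FPKM in control and 1.61 with doxorubicin. Of 8 leukocyte and endothelial markers 6 stayed under 1 FPKM, with PTPRC and CD3E at 0. The endothelial marker PECAM1 had 4.12 FPKM in KO control and 10.3 in KO doxorubicin, with an error scale above its response (1.90 ± 4.15). In WT control and WT doxorubicin it had 0.305 and 0.154 FPKM. The sum of that list went from 175.8 to 445.0 FPKM, nearly all of it CD68, a lysosomal protein that carcinoma lines also make (171 to 434 FPKM), and its part in the results was not tested.

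Cells renew their mRNAs at very different rates. The transcripts of immediate early genes, feedback inhibitors, cyclins and many transcription factors are made and degraded quickly, whereas those of ribosomal proteins and glycolytic enzymes persist for long. The lifetime of mRNAs was not measured here, and its part in the response was not tested. Topoisomerase II, the main target of doxorubicin, relieves the torsion that replication and transcription put on DNA, and anthracyclines are also known to displace histones and to act on mitochondria.

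The spread of the response was wide. As deposited, the median gene kept had 0.593 of its control level after doxorubicin (-0.75 log2), 4024 genes were at least 2-fold lower (44.7%) and 382 at least 2-fold higher (4.24%). After centring, 2670 genes were lower (29.6%) and 2335 higher (25.9%), and the list counts below are to be read beside these shares. The higher share of all genes past 2-fold was thus 8.67% as deposited and 46.7% after centring, so every direction given here is relative to the median gene. Scaling both groups to the same summed FPKM without mitochondrial genes moved the median of all genes by -1.05 log2 against centring, and 27 of the 44 list medians kept their sign under it. A centred response between 0 and about 1.05 is thus negative under that scaling, for lists and single genes alike. The bound is rough, since CDK2 with a centred response of 1.07 also turned negative (-0.0056). In these bulk samples fewer cells and less RNA per cell cannot be told apart, and FPKM carries no total amount of RNA. Of the genes with an error scale, 2084 of 2265 higher ones and 1727 of 2276 lower ones were also at least 2 error scales from the median.

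Both sides of this distribution had different shapes. On the lower side it ran on, with 975 genes at least 4-fold and 189 at least 8-fold lower, 178 of the latter protein-coding. On the higher side 2213 genes lay between 2-fold and 4-fold and only 122 above 4-fold. The quartiles of all genes kept lay at -1.24 and 1.03 on the centred scale. KO cells under cisplatin, measured against the same control samples, had quartiles of -0.39 and 0.33, with 3.18% of 9367 genes higher and 8.76% lower and 192 genes at least 4-fold lower. The standard deviation of the log2 response over genes was 1.41 with doxorubicin and 0.735 with cisplatin.

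**Figure D1:**
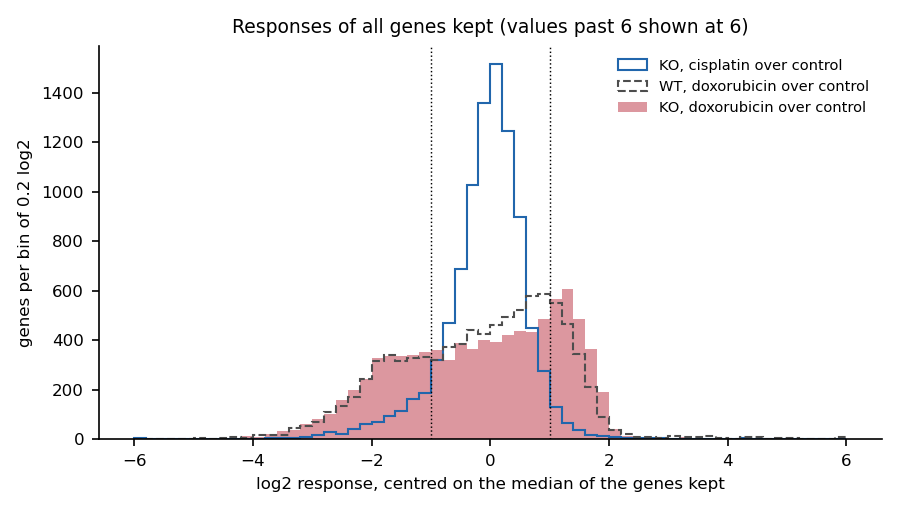
Histogram of centred log2 responses (x axis) over the genes kept, in genes per bin of 0.2 log2 (y axis), for KO cells with doxorubicin (filled), WT cells with doxorubicin (dashed) and KO cells with cisplatin (blue line); dotted lines mark a 2-fold response. The doxorubicin response of KO cells is broad and ends steeply on the higher side, with 2213 genes between 2-fold and 4-fold and 122 above, while the cisplatin response is narrow around 0.

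The genes with the lowest responses had varied roles. CYR61, a secreted matrix protein and classical target of the Hippo pathway, had 360.1 to 2.92 FPKM, which is 54.6 times lower than the median gene (centred response -5.77 ± 0.30). PHLDA1, an early growth factor target, had 159 to 1.26 FPKM (-5.40 ± 0.24), and FOSL1, a subunit of the AP-1 transcription factor, had 266 to 3.65 FPKM (-5.09 ± 0.26). SLC20A1, a phosphate transporter, had 219 to 3.46 FPKM (-4.87 ± 0.32). MCL1, the short-lived inhibitor of mitochondrial apoptosis, had 138 to 2.28 FPKM (-4.65 ± 0.51). CTGF and AMOTL2, further Hippo pathway targets, had 291 to 7.91 FPKM (-4.28 ± 0.18) and 82.7 to 1.23 FPKM (-4.48 ± 0.72). All 7 of these had 82.7 FPKM or more in KO control and 7.91 FPKM or less after doxorubicin. DUSP4, ARF6, IMP3 and BCAR3 complete the protein-coding genes outside the apoptosis lists among the 15 lowest, with centred responses of -4.64, -4.60, -4.30 and -4.25. The microRNA gene MIR6723, within a copy of mitochondrial sequence on chromosome 1, was listed at 1057 FPKM in KO control and at 0 in KO doxorubicin, and also at 0 in both WT groups and in KO cisplatin. The U6 pseudogene RNU6-5P had 32.2 FPKM in KO control and a listed 0 after doxorubicin, and was listed at 0 in WT control too. FPKM of such very short genes rest on few reads, so both are uncertain.

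Of the 13 protein-coding genes among the 15 lowest, 7 carry TATTTAT in the 3′ untranslated region of their principal transcript (GENCODE release 29, sense strand, overlapping matches counted). This motif is the core of AU-rich elements, which recruit mRNA decay factors. Of 8539 protein-coding genes kept, 8506 had a transcript, and 30.9% of these hold the motif. The windows below, 27 bases around the first match with the motif in capitals (GRCh38), show it in 6 of the 7 genes; CYR61 has 2 matches, PHLDA1 and MCL1 have 3 each, and the others have 1.
CYR61, chr1:85583560-85583586, plus strand: ctgaatgtttTATTTATcaaaatgtag
PHLDA1, chr12:76029883-76029909, minus strand: agaagactttTATTTATgaacctttga
FOSL1, chr11:65892273-65892299, minus strand: gggcagctgcTATTTATtttcctaaag
MCL1, chr1:150575808-150575834, minus strand: cctctacagaTATTTATatcaattcct
ARF6, chr14:49896860-49896886, plus strand: tccatttctgTATTTATgtgaatttat
BCAR3, chr1:93562064-93562090, minus strand: agagcacactTATTTATgaattgtcta
A match is a description of the letters and not a measured decay site. Over all coding genes the median centred response was 0.13 without a match (5881 genes), -0.33 with 1 (1605) and -0.55 with 2 or more (1020), but genes with more matches also have longer 3′ regions, at medians of 680, 1747 and 3212 bases. With genes ranked into 5 classes by the length of the 3′ region, the longest class had medians of -0.41 without a match, -0.74 with 1 and -0.60 with 2 or more. In the shortest class they were 0.58 without a match and 0.42 with 1, with 3 genes of 2 or more matches.

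**Figure D2:**
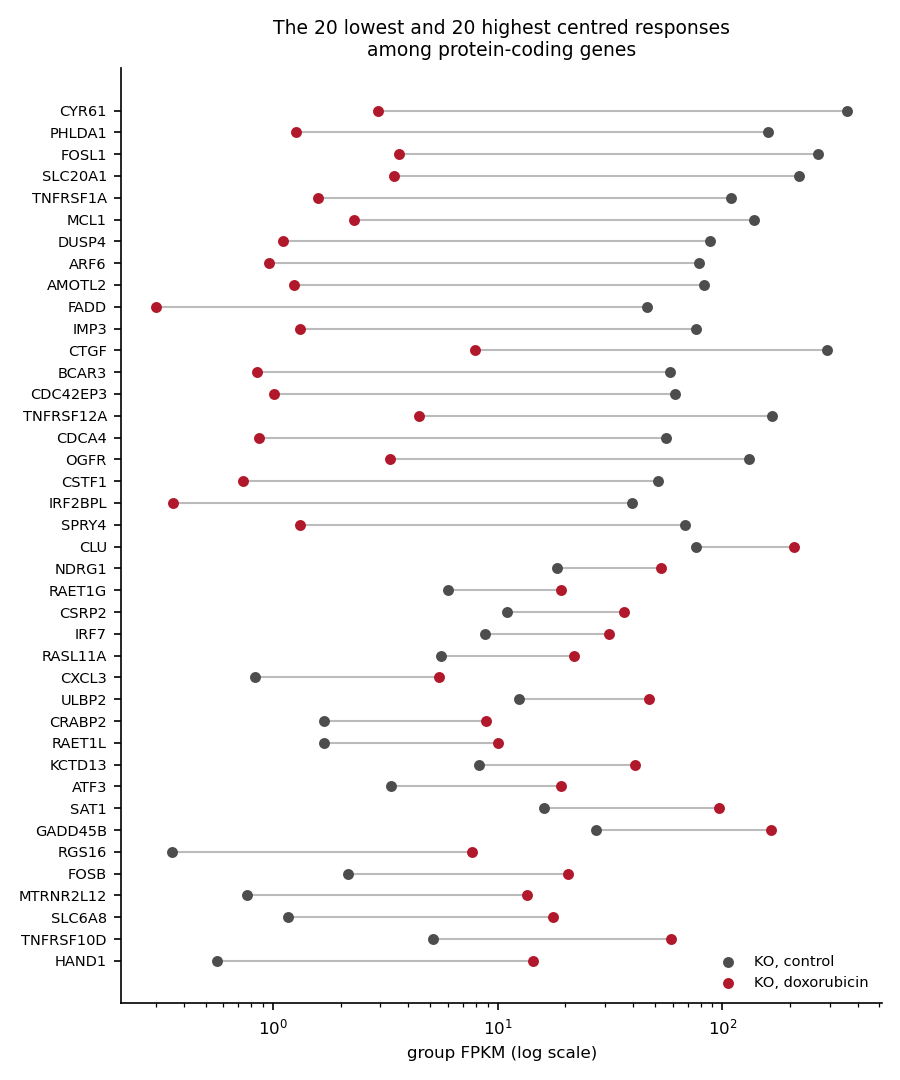
Group FPKM on a log axis of the 20 lowest and the 20 highest centred responses among protein-coding genes outside the mitochondrial genome (1 row per gene), in KO control (grey) and KO doxorubicin (red), joined by a line. The 20 lowest start between 39.7 and 360.1 FPKM and end below 8 FPKM; the 20 highest start between 0.355 and 75.9 FPKM.

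Immediate early genes and the feedback inhibitors of MAP kinase signalling were the list with the lowest median of those with 6 or more members kept. Of its 28 genes 24 were kept, 20 of them lower and 3 higher, with a median centred response of -3.01 (18 of the 24 passed the minimum only through control). The phosphatase gene DUSP4, which switches off MAP kinases, had 87.7 to 1.10 FPKM, and SPRY4, an inhibitor of receptor tyrosine kinases, had 67.9 to 1.31 FPKM (-4.14 ± 0.73). Other members followed across roles: the phosphatase DUSP6 (-3.46 ± 0.70), the AP-1 subunits JUND (-3.42 ± 0.52) and JUN (-2.31 ± 0.21), the response gene IER3 (-3.39 ± 0.24) and the growth regulator MYC, with 61.05 to 7.41 FPKM (-2.13 ± 0.34). Against this, FOSB, an AP-1 subunit, had 2.15 to 20.6 FPKM (3.53 ± 0.70), ATF3, a stress-induced repressor, had 3.34 to 19.1 FPKM (2.96 ± 0.74), and EGR1, a zinc finger factor, had 3.69 to 9.59 FPKM (1.93 ± 0.30). These 3 were the only members kept on the higher side, all from under 4 FPKM in control. Under cisplatin the median of the same genes was 0.05.

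Receptor and ligand genes of several growth pathways were low together. Of 6 EGF receptor and ligand genes kept, 4 were lower and 0 higher (2 passed only through control): the ligand HBEGF had 112 to 7.58 FPKM (-2.97 ± 0.20), the feedback inhibitor ERRFI1 had 55.5 to 3.85 FPKM (-2.79 ± 0.30), and the receptor EGFR had 37.4 to 3.74 FPKM (-2.26 ± 0.25). In the TGF-beta list 10 of 16 were lower and 1 higher, with a median of -1.98, and 8 passed only through control. The lower ones included the receptor TGFBR2 (27.9 to 1.55 FPKM, -2.75 ± 0.18), the signal transducer SMAD3 (-2.69 ± 0.97) and the target ID3 (27.8 to 1.28 FPKM, -2.91 ± 0.71), while the ligand TGFB1 had 41.2 to 58.6 FPKM (1.25 ± 0.11). Of 16 Wnt pathway genes 12 were lower and 0 higher, with a median of -1.62, and 13 of them passed only through control. The secreted antagonist DKK1 had 133 to 4.50 FPKM (-3.85 ± 0.46), the receptor FZD2 had 88.6 to 3.49 FPKM (-3.57 ± 0.28) and the ligand WNT7B had 23.6 to 1.05 FPKM (-2.83 ± 0.37). Beta-catenin itself, CTNNB1, stayed near the median gene with 165 to 109 FPKM (0.16 ± 0.05). Of 7 Notch genes 3 were lower and 1 higher, from the coactivator MAML1 (-1.94 ± 0.73) to the target HES4 (1.49 ± 0.35).

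Among NF-kB subunits and feedback genes 7 of 12 were lower and 1 higher, with a median of -1.23, and 6 passed only through control. The inhibitors NFKBIA (37.7 to 0.835 FPKM, -3.64 ± 1.75) and NFKBIE (17.2 to 0.371 FPKM, -2.98) had the lowest values. The subunit RELA, which NFKBIA holds in the cytoplasm, had 51.4 to 8.67 FPKM (-1.69 ± 0.37). The inhibitor NFKBIB was the member on the higher side (28.3 to 38.05 FPKM, 1.17 ± 0.26). Of the inflammatory cytokines only 9 of 21 were kept, 3 higher and 2 lower. The neutrophil chemokine CXCL3 went from 0.834 to 5.45 FPKM (2.57), the IL27 subunit EBI3 had 12.03 to 26.2 FPKM (1.82 ± 1.55), and the cytokine LIF had 21.3 to 3.12 FPKM (-1.69 ± 0.73). The error scale of EBI3 was as large as most responses, and that of CSF3 (-1.58 ± 3.61) was larger than its response.

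Most genes of mitosis were lower. Of 32 G2/M and spindle genes kept 22 were lower and 1 higher, with a median of -1.74 against -0.43 under cisplatin, and 13 passed only through control. PLK1, the kinase that drives entry into mitosis, had 141 to 3.87 FPKM (-4.11 ± 0.29). Cyclin A, CCNA2, had 66.5 to 1.38 FPKM (-4.07 ± 0.32), cyclin B, CCNB1, had 284 to 21.3 FPKM (-2.92 ± 0.19), and the kinase regulator CKS2 had 199 to 6.92 FPKM (-3.91 ± 0.31). KIF11, the motor that separates spindle poles, had 34.6 to 1.05 FPKM (-3.37 ± 0.25). The list was not uniform, since CDK1, the partner kinase of both cyclins, had 70.8 to 86.05 FPKM, a centred response of 1.03 that became -0.05 with equal summed FPKM, the separase inhibitor PTTG1 had 211 to 242 FPKM (0.95 ± 0.08) and the apoptosis inhibitor BIRC5 had 87.04 to 91.7 FPKM (0.83 ± 0.15). The S-phase list was spread around the median gene, with 8 of 35 higher, 9 lower and a median of 0.15. Neither share was larger than among all genes kept (25.9% higher, 29.6% lower). On the lower side stood the origin licensing factors CDT1 (53.6 to 3.38 FPKM, -2.89 ± 0.48) and MCM10 (27.6 to 1.73 FPKM, -2.64 ± 0.76). The nucleotide synthesis genes TK1 (252 to 509 FPKM, 1.76 ± 0.06) and TYMS (1.44 ± 0.06) stood on the higher side, with the ligase LIG1 (1.40 ± 0.32). Of 20 G1 cyclins, kinases and inhibitors 7 were lower and 3 higher, and all 7 lower ones passed the minimum only through control. The phosphatase CDC25A went from 21.9 to 0.183 FPKM (-3.52) and cyclin E1, CCNE1, from 14.5 to 0.586 FPKM (-2.53). E2F1, the transcription factor upstream of both, had 54.02 to 111 FPKM (1.78 ± 0.07), and the inhibitor CDKN1C had 3.05 to 7.75 FPKM (1.86 ± 0.42).

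The promoters of the mitotic genes were searched from 250 bases before to 50 after the gene start (RefSeq, GRCh38.p14). The shares below cover the whole list, which was chosen by function, whether a member was lower or not. Lower members were not compared with the others, so a link of the motifs to the response was not tested. The search covered both strands, for CCAAT, the site of the factor NF-Y, and TTTGAA, the core of the cell cycle homology region, and matches of these motifs can overlap by at most 1 base. Of 27 G2/M genes with a promoter entry 24 hold CCAAT (88.9%), 17 hold TTTGAA (63.0%) and 16 hold both (59.3%). Of all 35116 promoters of the same length 34.6% hold CCAAT, 15.2% hold TTTGAA and 5.90% hold both. Among the 7094 promoters of coding genes kept 44.4% hold CCAAT and 13.3% hold TTTGAA. Of 31 S-phase promoters 20 hold CCAAT (64.5%) and 1 holds TTTGAA (3.23%). The promoters of PLK1, CKS2 and KIF11, 3 of the lowest members, are printed as examples that hold both motifs, and do not stand for all low members. CCNA2, which lay between PLK1 and CKS2 (-4.07), is not shown. Motifs are in capitals, where ATTGG and TTCAAA are the motifs on the opposite strand.
PLK1, chr16:23678639-23678938, plus strand: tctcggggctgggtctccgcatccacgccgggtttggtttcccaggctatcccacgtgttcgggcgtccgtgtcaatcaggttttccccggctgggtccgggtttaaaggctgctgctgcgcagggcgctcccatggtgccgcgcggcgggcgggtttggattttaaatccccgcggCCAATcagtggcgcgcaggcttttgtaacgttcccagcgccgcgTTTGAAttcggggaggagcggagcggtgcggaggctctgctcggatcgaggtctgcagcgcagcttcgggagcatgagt
CKS2, chr9:89310945-89311244, plus strand: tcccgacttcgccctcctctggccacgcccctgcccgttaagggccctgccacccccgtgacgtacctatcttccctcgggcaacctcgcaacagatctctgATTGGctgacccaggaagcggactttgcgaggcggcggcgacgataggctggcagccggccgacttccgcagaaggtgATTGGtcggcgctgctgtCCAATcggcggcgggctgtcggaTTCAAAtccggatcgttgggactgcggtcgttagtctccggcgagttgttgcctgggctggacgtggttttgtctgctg
KIF11, chr10:92592880-92593179, plus strand: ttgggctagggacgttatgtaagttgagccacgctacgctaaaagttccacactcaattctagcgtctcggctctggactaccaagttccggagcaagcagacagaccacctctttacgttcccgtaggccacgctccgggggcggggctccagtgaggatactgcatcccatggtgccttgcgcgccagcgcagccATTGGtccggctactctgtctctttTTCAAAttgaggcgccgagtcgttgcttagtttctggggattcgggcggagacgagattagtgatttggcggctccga
In these 3 promoters TTTGAA begins 29, 29 and 28 bases before the gene start and a CCAAT begins 73, 52 and 53 bases before it. The matches describe the letters of the promoters, and binding of any factor was not measured.

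Both topoisomerase II genes, which code for the drug's targets, and TOP1 were within 2-fold of the median gene. TOP2A, the topoisomerase II of dividing cells, had 101 to 42.8 FPKM (-0.47 ± 0.11), TOP2B, the form of all cells, had 33.6 to 19.3 FPKM (-0.01 ± 0.11), and TOP1 had 95.8 to 78.7 FPKM (0.47 ± 0.06). Of the 9 genes of this list 2 were lower and 0 higher: TDP1, which removes topoisomerase I from DNA ends, with 29.6 to 6.12 FPKM (-1.35 ± 0.43), and TOP3A, with 32.7 to 7.62 FPKM (-1.22 ± 0.48). This lower share was below the 29.6% of all genes kept. TDP2, which removes topoisomerase II from DNA, had 21.2 to 15.7 FPKM (0.34 ± 0.34).

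Genes of double-strand break repair were lower in 14 of 28 members kept and higher in 2, with a median of -1.01 and 16 kept only through control. H2AFX, the histone variant that is phosphorylated at breaks, had 245 to 18.4 FPKM (-2.91 ± 0.18). The nuclease EXO1 had 30.7 to 1.51 FPKM (-2.91 ± 0.74) and the end-joining ligase LIG4 had 11.2 to 0.672 FPKM (-2.11 ± 0.48). The end-binding pair and its kinase lay above the median gene, with XRCC6 at 348 to 570.2 FPKM (1.47 ± 0.04), XRCC5 at 231 to 239 FPKM (0.80 ± 0.09) and PRKDC at 48.96 to 61.95 FPKM (1.09 ± 0.17). Excision and Fanconi repair genes had 4 of 19 lower and 0 higher, from FANCE (13.3 to 0.996 FPKM, -2.09 ± 0.38) upward, with a median of -0.13. That lower share, too, was below the 29.6% of all genes kept.

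MDA-MB-231 is known to carry mutant p53. Of 30 p53 target genes 19 were kept, 7 lower and 1 higher, with a median of -0.20, against 0.49 under cisplatin, and 9 passed only through control. PLK2, a kinase of the stress response, had 95.8 to 5.26 FPKM (-3.20 ± 0.57), and the nuclease AEN had 18.3 to 0.638 FPKM (-2.81 ± 1.52). CDKN1A, the cell cycle inhibitor p21, had 14.1 to 15.4 FPKM, a centred response of 0.87 ± 0.24, and its cisplatin response was 1.92. The value for MDM2, the p53 inhibitor, was 15.1 to 1.23 FPKM, with an error scale larger than its response (-2.10 ± 2.39). FDXR, a mitochondrial electron donor, was the member on the higher side (10.01 to 15.5 FPKM, 1.34 ± 0.32).

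Apoptosis genes lay on both sides. The BCL2 family had a median of 0.06, and its share of lower members was no larger than the 29.6% of all genes kept. The inhibitors MCL1 and BCL2L1 (245 to 20.2 FPKM, -2.78 ± 0.09) and the effector BAK1 (17.7 to 0.569 FPKM, -2.82) were the 3 lower ones of 12 kept. The other effector, BAX, had 206 to 212 FPKM (0.79 ± 0.19), and 2 members, BID (90.5 to 141 FPKM, 1.39 ± 0.25) and BCL2L12 (1.27 ± 0.13), were higher. Of 23 death receptor, caspase and inhibitor genes 12 were lower and 2 higher, with a median of -1.15, and 14 passed only through control. TNFRSF1A, the main TNF receptor, had 109 to 1.58 FPKM (-4.66 ± 1.07), and its adaptor FADD had 46.01 to 0.301 FPKM (-4.42, no error scale). The initiator caspase gene CASP8 had 19.8 to 2.64 FPKM (-1.77 ± 1.17). The 2 higher members were cytochrome c, CYCS, with 142 to 245 FPKM (1.53 ± 0.10), and TNFRSF10D, a decoy receptor for the death ligand TRAIL that lacks a working death domain. TNFRSF10D went from 5.17 to 58.99 FPKM, 16.4 times higher than the median gene (4.03 ± 0.21), whereas the signalling receptors TNFRSF10A and TNFRSF10B had 16.3 to 4.98 FPKM (-0.78 ± 0.52) and 24.2 to 12.7 FPKM (-0.12).

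Zinc finger and chromatin genes were mostly lower. Of 478 genes in the table whose names begin with ZNF, 97 were kept, 68 lower and 4 higher, with a median of -1.56 and 0.35 under cisplatin, but 75 of the 97 passed only through control. ZNF146 had 40.3 to 1.12 FPKM (-3.53 ± 0.59) and ZNF639 28.6 to 0.559 FPKM (-3.49 ± 1.16), and ZNF219 was at the other end with 7.82 to 11.99 FPKM (1.31 ± 0.40). Of 19 chromatin regulators 11 were lower and 1 higher, and 11 passed only through control. The remodeller CHD1 had 20.9 to 0.433 FPKM (-3.18 ± 1.60), the Polycomb subunit EED 32.7 to 2.02 FPKM (-2.72 ± 0.47) and the SWI/SNF subunit ARID1A 18.4 to 0.951 FPKM (-2.56 ± 0.77). HDAC1, a deacetylase, was the higher one, with 92.7 to 191 FPKM (1.79 ± 0.08). Among splicing regulators 7 of 23 were higher and 6 lower, shares near the 25.9% and 29.6% of all genes kept. The sides differed in protein family. All 6 lower ones were SR proteins, led by SRSF4 (52.2 to 3.30 FPKM, -2.88 ± 0.50), SRSF6 (-2.70 ± 0.23), SRSF1 (-2.41 ± 0.10) and SRSF3 (-2.36 ± 0.14). The 7 higher ones were 6 hnRNP genes, such as HNRNPA2B1 (745 to 1183 FPKM, 1.42 ± 0.03) and HNRNPC (1.33 ± 0.04), and the splice site factor U2AF2 (1.29 ± 0.10). This pattern was noticed after the values were seen and was not tested, and other SR and hnRNP genes of the list lay within 2-fold.

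In the circadian clock list 7 of 20 genes were kept, 4 lower and 0 higher. They were the repressors BHLHE40 (9.38 to 0.463 FPKM, -2.07), NFIL3 (-1.63 ± 0.54) and NR1D1 (5.04 to 0.470 FPKM, -1.29 ± 0.47) and the activator CLOCK (6.55 to 1.20 FPKM, -1.02 ± 0.91), and all 4 passed the minimum only through control. The CLOCK paralog NPAS2 had 59.5 to 33.1 FPKM (-0.08 ± 0.22).

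The mitochondrial genome gave the highest list. All 13 of its mRNAs were higher after centring and 11 of them also as deposited, with a median centred response of 2.41. MT-CO1, a subunit of cytochrome oxidase, had 2374 to 15041 FPKM (3.42 ± 0.01), and the neighbouring MT-CO2 had 3206 to 18866 FPKM (3.31 ± 0.02). MT-ND3 and MT-CYB were the least high, with centred responses of 1.35 ± 0.03 and 1.60 ± 0.03. The light strand gene MT-ND6 had 529 to 2923 FPKM (3.22 ± 0.05). Together the mRNAs made up 3.62% of the summed FPKM in control and 9.37% after doxorubicin. The ribosomal RNAs MT-RNR1 and MT-RNR2 went from 385 to 4402 FPKM and 1291 to 12218 FPKM. Under cisplatin the median of the 13 mRNAs was -0.27.

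Nuclear genes of respiration and translation stood on the same side at smaller size. Of 37 nuclear complex I genes 31 were higher and 1, NDUFV3 (21.3 to 4.56 FPKM, -1.25 ± 0.32), lower, with a median of 1.39; NDUFA2 was the highest (93.5 to 214 FPKM, 1.94 ± 0.10). Of 82 cytosolic ribosomal protein genes 71 were higher and 0 lower, within a narrow range around a median of 1.31. RPLP1 had 1546 to 3721 FPKM (2.02 ± 0.04) and RPL12 1688 to 3707 FPKM (1.89 ± 0.04), while the paralogs RPL39L (-0.51 ± 0.26) and RPL7L1 (-0.36 ± 0.07) lay below the median gene. As deposited only 11 of the 82 were 2-fold higher. Of 37 proteasome subunit genes 13 were higher, led by PSMD2 (694 to 1145 FPKM, 1.47 ± 0.04), and 2 lower, PSMC6 (82.8 to 16.5 FPKM, -1.51 ± 0.18) and PSMD12 (-1.39 ± 0.22). Most proteasome genes thus lay within 2-fold of the median gene, and of all genes kept 25.9% were higher.

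Metabolic lists held members on both sides. Of 22 glycolysis and glucose transport genes 14 were higher and 5 lower, with a median of 1.48. The enzymes PKM (2461 to 5002 FPKM, 1.78 ± 0.04), PFKL (1.77 ± 0.09) and GAPDH (6591 to 12622 FPKM, 1.69 ± 0.02) stood against the regulator PFKFB3 (37.1 to 4.54 FPKM, -2.03 ± 0.38), the transporter SLC2A1 (415 to 66.3 FPKM, -1.88 ± 0.09) and HK2 (-1.70 ± 0.38). LDHA, which makes lactate, had 1237 to 359 FPKM (-1.03 ± 0.06), while its partner subunit LDHB had 835 to 1391 FPKM (1.49 ± 0.04). In cholesterol and fatty acid synthesis 11 of 27 were higher and 3 lower. That lower share, like the one of the glycolysis list, was below the 29.6% of all genes kept. The lower ones included SQLE, an enzyme of sterol synthesis (8.27 to 0.245 FPKM, -2.14). The higher ones included SREBF2, a transcription factor that activates sterol synthesis genes (36.6 to 70.8 FPKM, 1.69 ± 0.19), and ACLY (1.58 ± 0.09). In the hypoxia list 6 of 17 were higher and 6 lower, from the vasodilator ADM (142 to 9.41 FPKM, -3.02 ± 0.33) to the stress gene NDRG1 (18.4 to 53.3 FPKM, 2.24 ± 0.25).

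**Figure D3:**
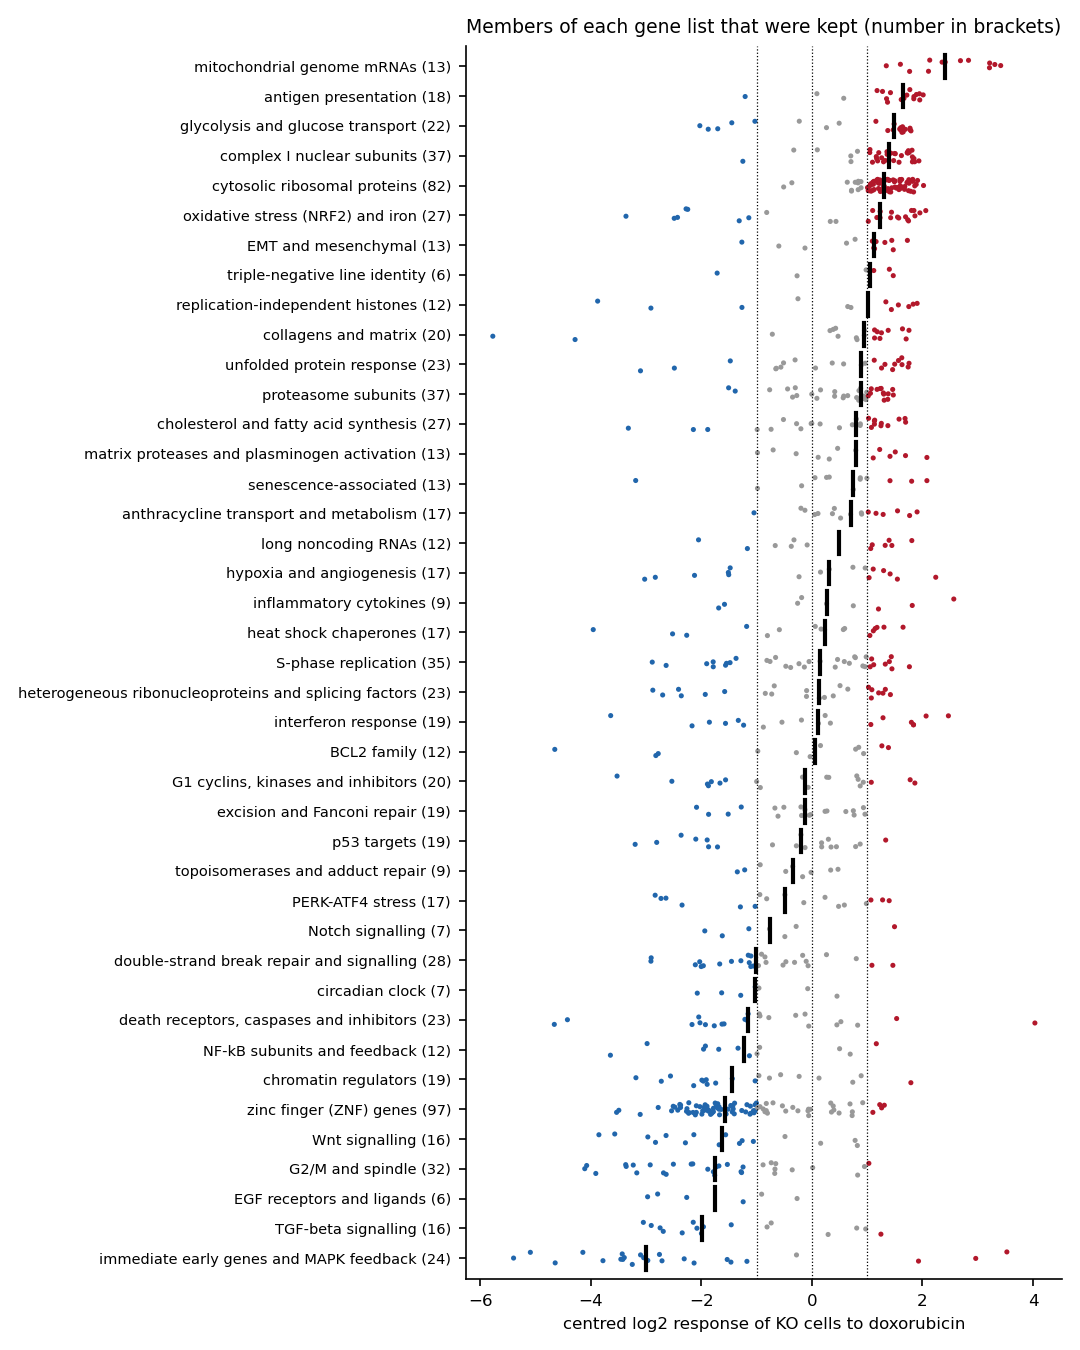
Centred log2 response (x axis) of every kept member (points) of each gene list with 6 or more members kept (rows, number kept in brackets), coloured where at least 2-fold higher (red) or lower (blue); vertical bars are list medians. Medians run from -3.01 for immediate early genes to 2.41 for mitochondrial mRNAs, and many lists hold members on both sides.

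Stress pathways also held members on both sides. Except in the PERK-ATF4 list, the share of lower members was below the 29.6% of all genes kept. Of 27 genes of oxidative stress and iron 17 were higher and 7 lower, with a median of 1.23. NFE2L2, the transcription factor NRF2, had 42.4 to 4.32 FPKM (-2.28 ± 0.33), its inhibitor KEAP1 had 83.7 to 3.89 FPKM (-3.36 ± 0.34) and the target HMOX1 had 16.6 to 0.936 FPKM (-2.43 ± 0.74). On the higher side stood the ferritin genes FTL (8634 to 21375 FPKM, 2.06 ± 0.03) and FTH1 (3553 to 8171 FPKM, 1.95 ± 0.03) and the peroxidase GPX1 (467 to 1011 FPKM, 1.86 ± 0.05). Of 23 unfolded protein response genes 10 were higher and 3 lower. The transcription factor XBP1 had 69.95 to 3.91 FPKM (-3.10 ± 0.30) and HERPUD1, a degradation factor, 26.8 to 1.94 FPKM (-2.49 ± 0.89), while the folding enzyme PDIA3 had 273 to 548 FPKM (1.76 ± 0.10). Of 17 PERK-ATF4 genes 6 were lower and 3 higher. ATF4 had 185 to 44.04 FPKM (-1.29 ± 0.08), its target TRIB3 17.1 to 0.619 FPKM (-2.73 ± 0.69), and the serine pathway enzyme SHMT2 219.7 to 344 FPKM (1.40 ± 0.07). Of 17 heat shock genes 4 were lower and 6 higher. HSPA8, the constitutive HSP70, went from 2662 to 274 FPKM (-2.52 ± 0.06) and its co-chaperone DNAJB1 from 130.5 to 4.03 FPKM (-3.96 ± 0.52), against HSPB1 with 325 to 606 FPKM (1.65 ± 0.06).

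Genes that handle anthracyclines were mostly near or above the median gene. Of 17 rows kept 6 were higher and 1 lower. NQO1, a quinone reductase, had 962 to 1671 FPKM (1.55 ± 0.05), the reductase AKR1B1 234 to 473 FPKM (1.77 ± 0.08) and CYB5R3 117 to 261 FPKM (1.90 ± 0.06), whereas the carbonyl reductase CBR3 had 23.00 to 5.89 FPKM (-1.05 ± 0.39). ABCB1, the export pump P-glycoprotein, was listed at 0 in both groups, and the exporter ABCC1 had 27.8 to 13.9 FPKM (-0.20 ± 0.15).

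Antigen presentation was higher in 15 of 18 genes kept and lower in 1, with a median of 1.64 and 0.06 under cisplatin. As deposited 7 of the 18 were 2-fold higher. The class I genes HLA-B and HLA-C had 213 to 491 FPKM and 164 to 394 FPKM, with centred responses of 1.95 ± 0.06 and 2.01 ± 0.07. Their light chain B2M had 837 to 1524 FPKM (1.62 ± 0.05), and CD74, the class II chaperone, 198 to 438 FPKM (1.89 ± 0.12). NLRC5, the activator of class I genes, was the lower member, with 9.88 to 1.80 FPKM and an error scale above its response (-1.21 ± 1.27). HLA genes are near-identical copies whose reads can be split between them. The ligands of the natural killer receptor NKG2D, listed after the values were seen, lay on both sides of the 2-fold line. ULBP2 had 12.4 to 47.04 FPKM (2.59 ± 0.21), RAET1L 1.69 to 10.00 FPKM (2.79 ± 0.75), RAET1G 6.03 to 19.02 FPKM (2.26 ± 0.35) and MICA 23.8 to 40.4 FPKM (1.49 ± 0.20), while ULBP3 had 5.31 to 2.21 FPKM (-0.22 ± 0.49) and MICB 12.6 to 13.3 FPKM (0.82 ± 0.28). The RAET1 and ULBP genes are close copies as well. In the interferon list 7 of 19 genes were higher and 6 lower. IRF7, an amplifier of interferon production, had 8.77 to 31.1 FPKM (2.47 ± 0.32), and the membrane proteins IFI6 and IFITM3 had 12.1 to 31.6 FPKM (2.07 ± 0.32) and 342 to 727 FPKM (1.84 ± 0.06). Against these, the factor IRF1 had 39.5 to 0.927 FPKM (-3.64 ± 1.02) and the RNA sensor DDX58 13.7 to 0.946 FPKM (-2.17 ± 0.27). IRF1 and DDX58 passed the minimum only through control.

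Matrix and mesenchymal genes lay mostly above the median gene. Of 20 matrix genes 9 were higher and 2, CYR61 and CTGF, lower, with a median of 0.95 against -1.28 under cisplatin. COL6A1 had 65.1 to 131 FPKM (1.76 ± 0.18) and COL13A1 98.96 to 192 FPKM (1.71 ± 0.08), and the same gene COL13A1 had a centred cisplatin response of -2.86. Of 13 protease and plasminogen genes 6 were higher and 0 lower, led by the inhibitor SERPINE2 (51.96 to 132 FPKM, 2.08 ± 0.16). Of 13 mesenchymal genes 8 were higher and 1 lower, with ITGB1 (259.6 to 511 FPKM, 1.73 ± 0.07) and VIM (1.47 ± 0.03) against the cadherin CDH11 (35.4 to 7.97 FPKM, -1.27 ± 0.45). Of 13 senescence-associated genes 3 were higher, led by SERPINE2 and IGFBP7 (132 to 274 FPKM, 1.80 ± 0.06), and 1 lower, the lamin LMNB1 (116 to 6.64 FPKM, -3.19 ± 0.33). Their higher share was no larger than the 25.9% of all genes kept, and their lower share was below the 29.6% of all. The median of the replication-independent histone genes was 1.02, but -0.06 with equal summed FPKM. Of 12 kept 6 were higher, such as H3F3A (95.3 to 202 FPKM, 1.83 ± 0.16), and 3 lower, H1F0, H2AFX and H3F3B (942 to 232 FPKM, -1.27 ± 0.06). H3F3A and H3F3B code for the same protein and lay on opposite sides. Of 89 clustered histone genes 4 were kept and 2 were higher, HIST1H1C and HIST1H2BK. Both of these and HIST1H2BD also count as members of the replication-independent list, so the histone lists are not separate. Of 12 long noncoding RNA rows kept 6 were higher, among them the snoRNA hosts DANCR (132 to 214 FPKM, 1.45 ± 0.15) and SNHG8 (1.40 ± 0.21), and 2 lower, TUG1 (18.99 to 1.86 FPKM, -2.05 ± 0.74) and SNHG15 (-1.17 ± 0.38).

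The highest responses by rank, leaving out genes with clone names and mitochondrial genes, were mostly of short noncoding genes. Of these 15, 11 were listed at 0 in control, among them MIR3665 and SNORA48 at 22.1 and 9.22 FPKM after doxorubicin, so they have no fold. FPKM of such very short genes rest on few reads. The gene with the clone name AC006115.1, left out of this ranking, was listed at 0 in control and at 24196 FPKM after doxorubicin, which alone was 2.55% of the summed FPKM of that group. Of 145 processed pseudogenes kept 123 were higher and 4 lower, with a median of 1.5. They are near-identical copies of expressed genes, and reads may be split between copy and parent. Ranked after the values were seen, the highest protein-coding genes outside the mitochondrial genome were HAND1, a developmental factor, with 0.560 to 14.3 FPKM (4.05 ± 0.67), TNFRSF10D, and the creatine transporter SLC6A8 with 1.16 to 17.7 FPKM (3.87 ± 1.47). GADD45B, a stress-induced regulator of MAP kinases, had 27.3 to 164 FPKM (3.30 ± 0.25). SAT1, which breaks down polyamines, had 16.1 to 96.2 FPKM (3.26 ± 0.22), RGS16, an inhibitor of G protein signals, 0.355 to 7.67 FPKM (3.43), and KCTD13, a ubiquitin ligase adaptor, 8.29 to 40.9 FPKM (2.93 ± 0.47). Of the 44 genes at least 8-fold higher 12 were protein-coding, and 6, a count that can overlap with these, lay in the mitochondrial genome.

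Features of gene structure, which the selection did not use, varied with the response. Coding genes were ranked into 5 classes by the length of their principal transcript. The shortest class (up to 1730 bases) had a median centred response of 0.86, with 45.3% higher and 15.4% lower, and the longest class (from 5108 bases) had -0.69, with 11.5% higher and 41.3% lower. Across 8506 genes Spearman's rho with transcript length was -0.305 and with the length of the 3′ region -0.227. Over 8539 genes it was -0.144 with the genomic span, and over 7095 genes with a promoter it was -0.0123 with the G+C content. These are descriptions over genes, which share libraries and are not independent. With the KO control level rho was 0.259, but that level is part of both the minimum and the response, so this value is partly built in. Length and level go together, with a median KO control level of 44.8 FPKM in the shortest and 14.6 FPKM in the longest class. The number of exons had a bent relation. Genes of 1 exon had a median of -1.64 (140 genes, 94 lower, 16 higher) and genes of 2 exons -1.33 (312 genes, 180 lower, 44 higher), while genes of 4 and 5 exons had 0.39 and 0.45 and genes of 21 or more -0.20. The genes of 1 exon included IRF2BPL (39.7 to 0.358 FPKM, -4.15), the linker histone H1F0 (159.9 to 5.51 FPKM, -3.88 ± 0.15) and IER2, an immediate early gene (57.3 to 1.52 FPKM, -3.78 ± 0.44). Most of the lower genes of 1 exon passed the minimum only through control, and the higher ones included mitochondrial genes such as MT-CO2. In each of the 5 length classes the median of genes with 1 or 2 exons was below that of genes with 3 to 5, from -0.10 against 1.10 in the shortest to -1.72 against -0.88 in the longest. In 5 classes of KO control level, the highest had 0.15 for 1 or 2 exons (36.5% higher, 35.1% lower) against 1.24 for 3 to 5. In the other level classes the medians for 1 or 2 exons lay between -1.75 and -1.45. In KO cells under cisplatin the median was 0.20 for 1 exon and -0.42 for 21 or more exons, the opposite order at the ends. Apart from the mitochondrial genome and the X chromosome, chromosome medians lay between -0.48 (chromosome 10, 364 genes) and 0.32 (chromosome 19, 569 genes). The X chromosome had 0.73 (250 genes, 43.6% higher and 15.2% lower).

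**Figure D4:**
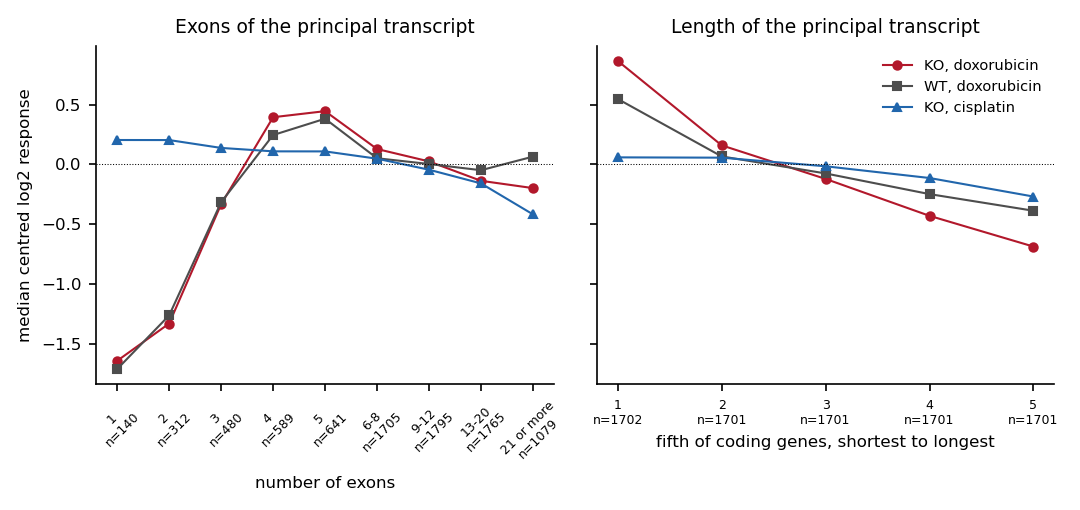
Median centred log2 response (y axis) of coding genes by the number of exons (left) and by 5 classes of the length of the principal transcript (right), with the number of genes under each point, for KO and WT cells with doxorubicin and KO cells with cisplatin. The doxorubicin medians are lowest for genes of 1 and 2 exons and go from 0.86 in the shortest to -0.69 in the longest class in KO cells.

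The response of WT cells, from other samples in the same tables, is given for comparison. Its median as deposited was -0.72 log2, and after centring 20.4% of 8939 genes were higher and 28.3% lower. Over 8472 genes kept in both genotypes the responses had a Pearson r of 0.924 and a Spearman rho of 0.939, as a description over genes that share tables and normalization. Of 2501 genes lower in KO cells 85.7% were lower in WT cells, which is 90.3% of the WT ones. Of 2188 genes higher in KO cells 68.6% were higher in WT cells, which is 85.7% of the WT ones. In 372 genes the responses differed by 2-fold or more, 226 of them by at least 2 error scales. The error scale belongs directly to this difference, since both tables compare KO with WT. The genes given next were singled out after their values were seen. H1F0 had 159.9 to 5.51 FPKM in KO cells and 218 to 24.3 in WT cells, a difference of -1.49 log2 or 9.78 error scales. FOSL1 had 258 to 9.26 FPKM in WT cells, and its KO response minus its WT response was -1.16 log2 (4.37 error scales). The same difference was -1.49 for EGFR (5.91 error scales), -1.31 for TGFBR2 (7.10) and -1.45 for SLC2A1 (16.6), all lower in KO cells. TNFRSF12A, the TWEAK receptor, had 167 to 4.45 FPKM in KO cells and 173 to 20.3 in WT cells. In the other direction MT-CO1 was higher by 1.05 log2 in KO cells, 79.8 error scales. MT-ND3 had a similar gap (1.35 in KO and 0.29 in WT), but most other mitochondrial mRNAs had a smaller one, such as MT-CO2 (3.31 and 2.96). MT-ND1 (2.83 and 2.97) and MT-ND5 (3.21 and 3.22) were not higher in KO cells. The median of the 13 mitochondrial mRNAs was 2.41 in KO and 2.12 in WT. List medians of KO and WT lay side by side as follows, untested, for G2/M genes (-1.74 in KO and -2.01 in WT), immediate early genes (-3.01 and -3.26) and ribosomal proteins (1.31 and 0.95). They were -0.49 and 0.33 for PERK-ATF4 genes and -1.75 and -0.81 for EGF receptors and ligands. A gap between list medians is not a difference gene by gene. The PERK-ATF4 medians fell on different genes, XPOT in KO and PSPH in WT. XPOT had -0.49 in KO and -0.095 in WT, and PSPH had -0.15 and 0.33.

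**Figure D5:**
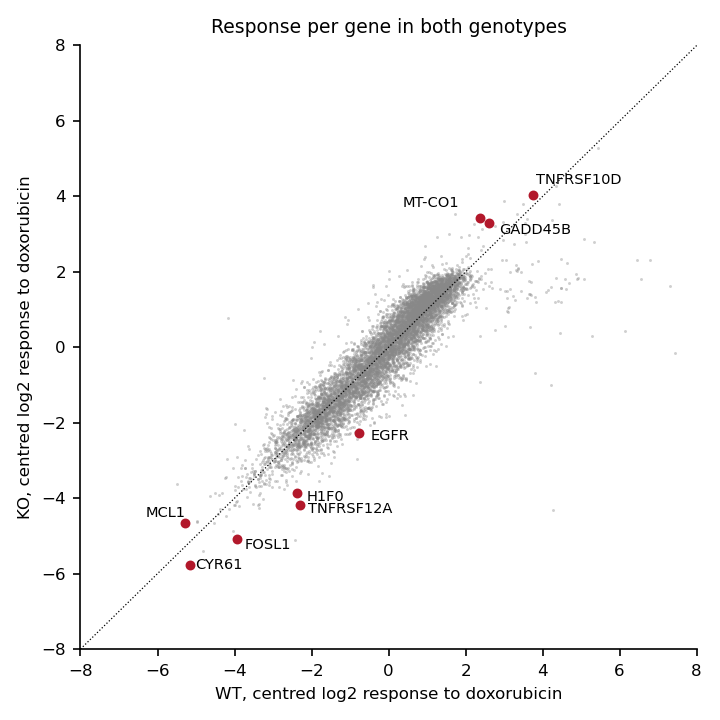
Centred log2 response to doxorubicin of each gene kept in both genotypes, in WT cells (x axis) and KO cells (y axis); the dotted line marks equal responses and red points are genes named in the text. Most of the 8472 genes lie near the line (Pearson r of 0.924), with H1F0, FOSL1, EGFR and TNFRSF12A below it.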

How the data were processed

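RNA-seq of MDA-MB-231 cells was processed by the submitters. Their processing notes name FastQC 0.11.5, Trimmomatic 0.35, STAR 2.5.3, Cufflinks and Cuffdiff and the build hg38. The authors deposited, per the file headers, tables that set KO against WT under each treatment, with 1 FPKM per gene and group, the log2 ratio of KO over WT, the test statistic (a score) and p-values and q-values. Which value belongs to WT and which to KO was read from the order of the names of the tables. The tables were normalized separately, and depth per library is unknown. Whether counting used strand is not stated, so overlapping, antisense and near-identical genes are uncertain.

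Rows were joined on gene identifiers, and responses were computed with a pseudocount of 1 FPKM and a minimum of 5 FPKM. The error scale of a gene is the size of the deposited log2 ratio over the statistic, combined over the control and doxorubicin tables as a root sum of squares. It is rough, since the normal quantile of the deposited p-value was at the median 1.47 (control) and 1.49 (doxorubicin) times the statistic. Scripts (Python 3.11.15, numpy 2.4.6, pandas 2.3.3, scipy 1.17.1) were tested on simulated data.

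Named genes are the 15 lowest and 15 highest with a single symbol, up to 4 members of each of 44 lists per direction, ARNTL, the topoisomerases and the genes nearest the thresholds. Other named genes were chosen after their values were seen: ABCC1, ATF4, B2M, BAX, BIRC5, CASP8, CCNB1, CDKN1A, CTNNB1, DUSP6, GADD45B, IER2, IER3, IRF2BPL, JUN, JUND, KCTD13, LDHA, LDHB, MT-CYB, MT-ND3, the mitochondrial ribosomal RNAs, MYC, NPAS2, the NKG2D ligands, PTTG1, RELA, RGS16, RPL39L, RPL7L1, SAT1, TNFRSF10A, TNFRSF10B, TNFRSF12A and XRCC5. Members and lists were chosen with earlier results of these data known. Alternatives were other pseudocounts, minimums, folds, scalings and error multiples. The tunicamycin and WT cisplatin groups were not used here. Some genes that the rule names are not reported here.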

Additional observations from a re-analysis of the deposited data

How the results depend on the processing

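The counts moved with most settings. Against 2335 higher and 2670 lower genes, they were 382 and 4024 without centring, and 100 and 4601 with both groups scaled to equal summed FPKM without mitochondrial genes. Without a minimum they were 1069 and 4367 (18214 genes above 0 in both groups), with 20 FPKM or more 707 and 1446 (4861 genes), and with a fold of 3 they were 718 and 1669. A pseudocount of 5 gave 1363 lower genes, a size of at least 2 error scales 1727, and of at least 3, an alternative chosen after seeing the data, 1236. Of the list medians and named genes at least 2-fold higher, those that changed sign under equal summed FPKM were the medians of replication-independent histones (-0.062) and triple-negative identity genes (-0.035) and CDK1 (-0.051), CDK2 (-0.0056), MTHFD2 (-0.015) and LYRM7 (-0.053). All of them lay just past the 2-fold line after centring, and this scaling moves the median of all genes by -1.05 log2. Of 44 list medians 44 kept their sign with a pseudocount of 0.1, 43 with 5, 34 without centring and 27 with equal summed FPKM, where smaller positive medians also turned. No paired analysis was possible because the tables hold 1 value per group, and for the same reason leaving out each replicate could not be run. Depth limits low genes, for which the fold is understated.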
